A study of Mus musculus with 17 samples.

Results

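Expression of 9 genes for leukocyte adhesion molecules and integrins was described in elicited mouse macrophages treated with HIV protein Tat. The genes were Icam1, Vcam1, Itgal, Itgam, Itgax, Itgb2, Itga4, Itgb1 and Selplg, taken as the rows of the expression table whose symbol was one of these names, and all 9 were found among 21683 rows. Peritoneal macrophages came from 8-week-old mice injected with 1 mL of 3% thioglycollate, a broth that draws leukocytes into the peritoneum, and the labels give collection 3 days later while the methods name another day. Cells attached for 4 h and were then given 100 nM Tat or PBS for 12 h. The 3 groups were IKKβF/F with PBS (F/F PBS, 6 libraries, numbered 1 to 6), IKKβF/F with Tat (F/F Tat, 6 libraries, 7 to 12) and IKKβΔMye with Tat (ΔMye Tat, 5 libraries, 19 to 23). All mice carried loxP-flanked alleles of Ikbkb, which encodes IKKβ, the kinase that releases NF-κB from its inhibitors. ΔMye mice also carried LysM-Cre, a Cre recombinase placed in the Lyz2 gene, so that deletion was directed at macrophages and neutrophils. The Tat was recombinant protein, and none of the 17 libraries was ΔMye with PBS. A change with Tat in ΔMye cells alone could therefore not be computed, and the comparison of ΔMye Tat with F/F Tat holds the deletion, the Cre and any baseline difference together.

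Leukocytes leave the blood in steps, rolling on selectins, firm arrest through integrins, and crossing of the vessel wall. Integrins are pairs of an α and a β chain that switch to a binding form on activation. The β2 chain pairs with αL to form LFA-1, with αM to form Mac-1 and with αX to form CR4, and these bind ICAM-1 among other ligands. The α4 chain pairs with β1 to form VLA-4, which binds VCAM-1 and fibronectin, and PSGL-1, encoded by Selplg, is the selectin ligand of myeloid cells. Macrophages use αM and αX also for uptake of complement-coated particles, and they can carry ICAM-1 and VCAM-1 themselves. Icam1 and Vcam1 are textbook targets of NF-κB in endothelium.

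Values are TPM, a share of transcripts that is corrected for transcript length, so that levels can be compared between genes. TPM keeps no read number, and sequencing depth is therefore unknown. Listed values summed to 889318 to 903576 TPM a library. Ikbkb was at 23.2 ± 1.44 TPM (SD, n = 6) in F/F Tat, whereas ΔMye Tat had 16.4 ± 2.59 (n = 5), a log2 difference of -0.51 (limma adjusted p = 4.51e-05), with no overlap between groups. Genes at 1 TPM or more numbered 10228 to 10378 in F/F PBS, 9260 to 9405 in F/F Tat, and ΔMye Tat had 9449 to 9698. The median tested gene differed by -0.65 on the log2 scale with Tat, by 0.22 between ΔMye Tat and F/F Tat and by -0.43 between ΔMye Tat and F/F PBS. Differences below are therefore also given after median-ratio scaling of the libraries, which brought these medians to -0.03, 0.01 and -0.02. Among the ΔMye libraries, library 23 was the lowest in TPM for 9 of 9 members and library 19 the highest for 7 of 9. After scaling, library 23 was the lowest for 6 of 9 and the highest for 1, and library 19 the highest for 6 of 9 and the lowest for 1. Their median absolute log2 deviations from the rest of their group were 0.176 and 0.143, against 0.0874 to 0.127 in the other libraries of the 3 groups. Results of this group are given without them where that changes a call.

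Of the members, 3 lie on chromosome 7 of GRCm38 (GENCODE M21 annotation), Itgal at chr7:127296260-127335138, Itgam at chr7:128062640-128118491 and Itgax at chr7:128129547-128150657, all on the plus strand, with 11055 bases between Itgam and Itgax. The others are spread over the genome, with Icam1 at chr9:21015985-21028817, Vcam1 at chr3:116109949-116129688 on the minus strand, Itgb2 at chr10:77530252-77565708, Itga4 at chr2:79255426-79333123, Itgb1 at chr8:128685654-128733200 and Selplg at chr5:113818536-113832644 on the minus strand. At most 14.8% of a member's 31-base words were shared with other genes, except for Itgam, of whose 31-base words 68.3% also occur elsewhere, mainly in the overlapping gene Gm49368 on the same strand. Gm49368 was listed at 0.0937 to 5.38 TPM, but that level itself rests on how shared reads were split. How far the split affects Itgam is therefore unknown. The opposite-strand gene Cerkl, which overlaps Itga4, reached at most 0.205 TPM. Antisense genes Gm47079 and Gm43109, which overlap Icam1 and Vcam1, were not analysed here, and whether the libraries kept strand is not given in the sources used here.

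Promoter windows, from 250 bases before to 50 after the RefSeq gene start (GRCm38.p6), were matched for 5 of the 9 members, Icam1, Itgam, Itgax, Itga4 and Itgb1. Of these windows, 3 are printed 5′ to 3′, because they hold, or lack, motifs of NF-κB, the factor downstream of the deleted kinase. Capitals mark a match.
Icam1 (chr9:21015690-21015989, plus strand): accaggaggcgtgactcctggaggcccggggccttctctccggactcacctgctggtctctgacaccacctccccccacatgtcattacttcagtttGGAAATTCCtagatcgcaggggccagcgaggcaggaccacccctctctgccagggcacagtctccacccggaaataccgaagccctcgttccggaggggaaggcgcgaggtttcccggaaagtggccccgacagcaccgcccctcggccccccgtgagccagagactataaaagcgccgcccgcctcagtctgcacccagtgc
Itgb1 (chr8:128685404-128685703, plus strand): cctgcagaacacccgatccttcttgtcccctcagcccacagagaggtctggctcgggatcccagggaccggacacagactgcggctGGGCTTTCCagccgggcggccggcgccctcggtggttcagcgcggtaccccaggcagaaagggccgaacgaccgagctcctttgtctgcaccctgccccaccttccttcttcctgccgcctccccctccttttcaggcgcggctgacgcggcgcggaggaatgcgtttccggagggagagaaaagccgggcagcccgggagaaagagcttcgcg
Itgax (chr7:128129300-128129599, plus strand): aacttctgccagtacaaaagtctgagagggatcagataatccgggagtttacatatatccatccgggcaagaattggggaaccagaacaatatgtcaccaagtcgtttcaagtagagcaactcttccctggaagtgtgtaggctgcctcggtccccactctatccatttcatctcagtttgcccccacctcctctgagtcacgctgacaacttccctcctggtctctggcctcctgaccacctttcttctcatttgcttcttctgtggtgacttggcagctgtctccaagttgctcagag
In the Icam1 window GGAAATTCC stood at positions -153 to -145 from the start, a motif held on either strand by 0.317% of 32851 promoter windows of the same length. The Itgb1 window held GGGCTTTCC at -164 to -156, which fits GGGNNTTCC, a looser form found in 5.82% of windows. None of the 4 motifs searched on both strands occurred in the Itgam, Itgax or Itga4 windows. The other 2 motifs were the NF-κB consensus, in 4.51% of all windows, and the PU.1 core GAGGAAGT, in 3.20%, and neither was in any of the 5. These letters are a description and say nothing of binding in these cells.

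In F/F PBS the members' levels spanned Itgb2 at the top to Vcam1 at the bottom, in the order Itgb2, Itgb1, Itgam, Selplg, Icam1, Itgal, Itgax, Itga4 and Vcam1. Itgb2 averaged 825 TPM there and Vcam1 3.25. Only Selplg with Icam1 and Itgax with Itga4 had overlapping library values among neighbours in that order. In F/F Tat, Itgb2 and Itgb1 overlapped at the top, Icam1 followed, above Itgam, Itgal overlapped Selplg, Vcam1 came next, and Itga4 and Itgax overlapped at the bottom. In ΔMye Tat, Icam1 again came next after Itgb2 and Itgb1, followed by Itgal overlapping Itgam, by Vcam1 overlapping Selplg and by Itga4 overlapping Itgax. From F/F PBS to ΔMye Tat, Vcam1, Icam1 and Itgal moved up the order and Selplg, Itgam and Itgax moved down.

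**Figure D1:**
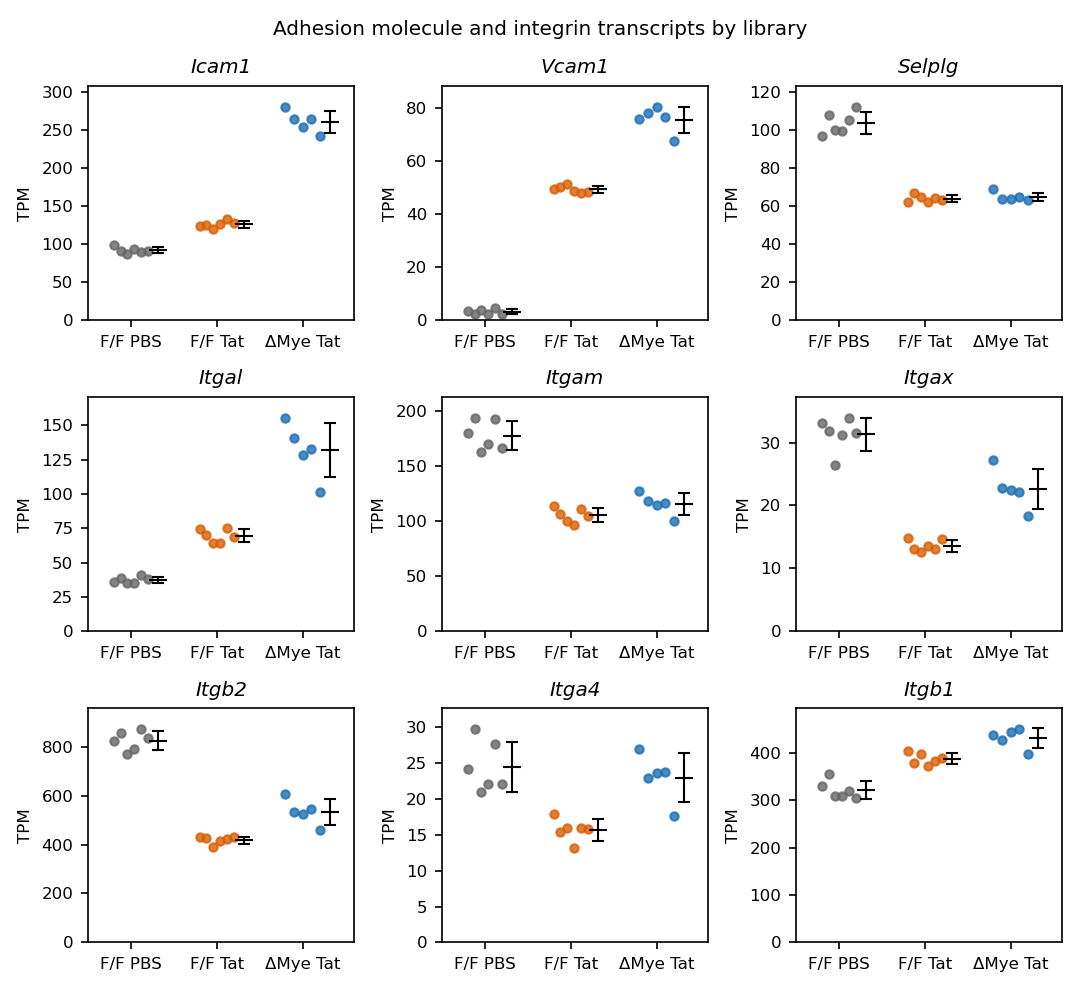
TPM of each member (y axes, linear from 0) in each library of F/F PBS, F/F Tat and ΔMye Tat, with points for libraries in numeric order and bars for the mean and SD of 6, 6 and 5 libraries. Icam1, Vcam1 and Itgal step up from group to group with no overlap, while Itgb2 is at 771 to 871 TPM in F/F PBS and 391 to 430 in F/F Tat.

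With Tat, 4 members rose and 5 fell in F/F macrophages. Adjusted p (limma, Benjamini-Hochberg over 10451 tested genes) was under 0.01 for 4 members with higher values (Vcam1, Itgal, Icam1 and Itgb1) and for 5 with lower values (Itgax, Itgb2, Itgam, Selplg and Itga4). Over all tested genes the same rule was met by 17% in the higher direction and 67.6% in the lower. The members' median log2 difference was -0.63, against -0.65 for all tested genes. With a fold over 3 also required, 1 member was called higher, Vcam1, and 0 lower, where 5.21% and 19.4% of tested genes were. After scaling 4 members rose, 2 fell (Itgax and Itgb2) and 3 did not pass. Of all 10451 tested genes, 3893 rose and 3967 fell by the same rule after scaling. All 9 had libraries that did not overlap between groups in TPM, and for each the exact permutation test (two-sided) gave 0.00216, the smallest p that 6 against 6 libraries allow. Separation by rank was common over all genes. Of 10451 tested genes, 1672 as higher and 6757 as lower had an adjusted p under 0.01 in the exact Wilcoxon test. Lack of overlap itself was not counted over all tested genes. As in any bulk sample, fewer cells of a type and less RNA per cell cannot be told apart in these values.

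Between the Tat-treated groups, 7 members were higher in ΔMye than in F/F macrophages and none was lower. Those past an adjusted p of 0.01 (limma, Benjamini-Hochberg) were Icam1, Itgal, Itgax, Vcam1, Itga4, Itgb2 and Itgb1, while Itgam and Selplg did not pass, so 7 rose, 0 fell and 2 did not pass. In all tested genes 38.8% passed as higher and 8.87% as lower. The members' median log2 difference was 0.54, against 0.22 for all tested genes. None was past a fold of 3, a rule met by 0.44% of tested genes as higher and 0.316% as lower. After scaling, 6 were higher, 1 was lower (Selplg) and 2 did not pass. Of all 10451 tested genes, 1658 were higher and 2027 lower by the same rule after scaling.

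Against F/F PBS, ΔMye Tat libraries had 4 members higher (Vcam1, Itgal, Icam1 and Itgb1), 4 lower (Selplg, Itgb2, Itgam and Itgax) and 1 that did not pass, Itga4, in the same limma fit. Of all tested genes 17.5% passed as higher and 58.8% as lower. Vcam1 and Itgal were also past a fold of 3, called higher like 4.38% of tested genes, and 0 members were called lower, where 11.1% of genes were. After scaling 5 members were higher, 3 lower and 1 did not pass. Of all 10451 tested genes, 3530 were higher and 3539 lower by the same rule after scaling. The 3 comparisons share libraries pairwise and are not independent of each other.

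**Figure D2:**
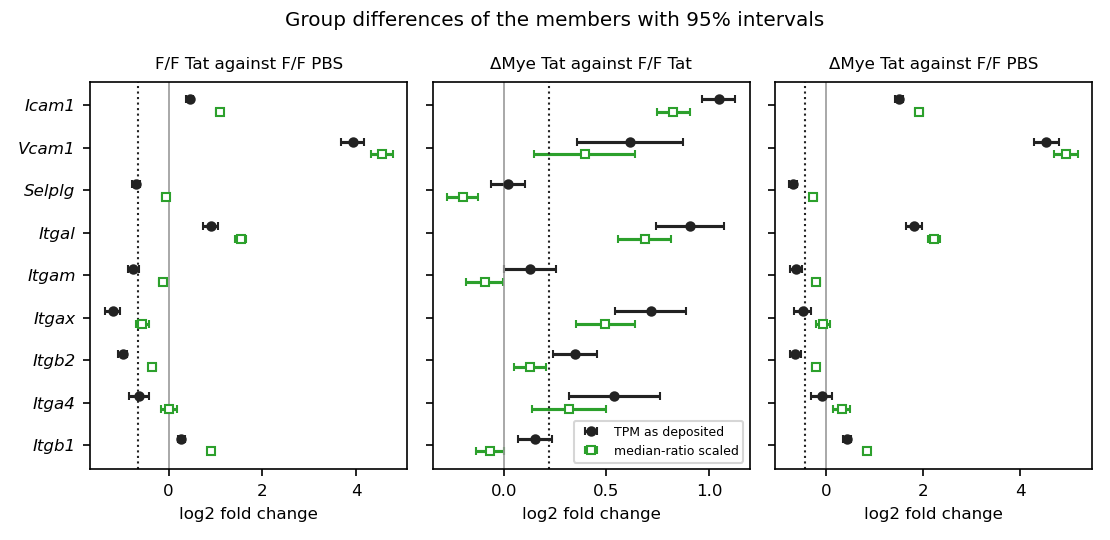
Log2 differences of the 9 members (x axis) in the 3 comparisons, each with its own x scale, as filled circles for deposited TPM and open squares after median-ratio scaling, with 95% intervals and a dotted line at the median tested gene in deposited TPM. Icam1, Vcam1 and Itgal lie right of 0 in all 3 panels on both scales, and the Itgam, Itgb1 and Selplg points of the middle panel move to the left of 0 after scaling.

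Icam1, the immunoglobulin-family ligand of LFA-1 and Mac-1, rose with Tat and was higher still in ΔMye cells. F/F PBS libraries ran from 87.7 TPM through a median of 91.4 to 99.0, and F/F Tat libraries from 120 through 126 to 133. The ΔMye Tat libraries 19 to 23 were at 280, 264, 254, 265 and 242. The lowest ΔMye library was thus above every F/F Tat library, and the lowest F/F Tat library above every F/F PBS library. The log2 difference with Tat was 0.45 (SE 0.04, adjusted p = 6.24e-10 by limma), a fold of 1.37, and after scaling it was 1.09. Between ΔMye Tat and F/F Tat it was 1.05 (SE 0.04, limma adjusted p = 6.75e-14), a fold of 2.07, and after scaling it was 0.83. Without libraries 19 and 23 this second difference was 1.05. ΔMye Tat against F/F PBS differed by 1.50, or 1.91 after scaling.

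Vcam1, the ligand of VLA-4, was the member with the lowest level in F/F PBS and the largest log2 difference with Tat. Its F/F PBS libraries held 2.42 to 4.60 TPM with a median of 3.08, its F/F Tat libraries 48.0 to 51.5 with a median of 49.2, and its ΔMye Tat libraries 76.2, 78.2, 80.4, 76.8 and 67.5. No library of one group reached into another. By limma, the differences were 3.92 with Tat (SE 0.12, adjusted p = 8.35e-17) and 0.61 between the Tat groups (SE 0.12, adjusted p = 3.10e-04), and after scaling 4.55 and 0.39 (adjusted p 0.00973 for the second). Vcam1 and Icam1 did not move in proportion. The ratio of Vcam1 to Icam1 TPM was 0.0354 ± 0.00995 in F/F PBS, and with Tat it was 0.393 ± 0.0232 in F/F and 0.291 ± 0.0173 in ΔMye macrophages (SD, n = 6, 6 and 5), with no overlap between groups.

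Both ligands are also endothelial genes, so endothelial and other cell markers were read beside them. The 5 endothelial markers summed to 4.13–5.22 TPM in F/F PBS, and with Tat the sum was 7.70–11.6 in F/F and 3.87–7.50 in ΔMye macrophages, with 2 of the 5 at 0 in all libraries of each group. Mesothelial and stromal markers summed to 15.4–22.4, 10.5–12.5 and 5.51–8.66 TPM in the same order. Both sums were lower in ΔMye Tat than in F/F Tat, whereas Icam1 and Vcam1 were higher there. Between F/F PBS and F/F Tat the endothelial sum rose, as did both ligands. That sum was nearly all Kdr (means of 4.46, 7.54 and 4.63 TPM) and Cdh5 (0.193, 2.40 and 1.12). Tie1 averaged 0.0364, 0.00305 and 0.0230 TPM, lower with Tat, and Tek and Emcn were at 0, so the endothelial markers did not rise as a set. The part of such cells in the differences was not tested. The 7 macrophage markers, none at 0, summed to 25604–26627, 10205–10779 and 7892–8244 TPM. Most of it was Lyz2, the gene that holds the Cre in ΔMye mice, which averaged 22382, 6993 and 4333 TPM. Csf1r also was highest in F/F PBS (381, 64.0 and 104 TPM), as was Cd68 (2596, 1744 and 1886). Cd14 averaged 203, 842 and 1009 TPM, Fcgr1 113, 300.1 and 164, Mertk 15.4, 20.1 and 24.3, and Adgre1 (F4/80) 499, 441 and 512. The macrophage markers thus moved in different directions with Tat. Between the Tat groups, Lyz2 and Fcgr1 averaged lower in ΔMye cells and the other macrophage markers higher. The part of these markers in the members' differences was not tested.

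Itgal, the α chain of LFA-1, was the one of the 3 α partners of β2 among the members that rose with Tat. The 6 F/F PBS libraries ran from 35.0 TPM through a median of 36.9 to 40.8 and the 6 F/F Tat libraries from 64.6 through 69.7 to 75.3. The ΔMye Tat libraries stood at 155, 141, 128, 133 and 102. No groups overlapped, but the ΔMye libraries were the most spread, with an SD of 19.7 TPM against 4.58 in F/F Tat. In the limma fit Itgal differed by 0.90 with Tat (SE 0.08, adjusted p = 9.87e-10) and by 0.91 between the Tat groups (SE 0.08, adjusted p = 1.52e-08), folds of 1.87 and 1.87. The scaled differences were 1.54 and 0.69. Leaving out libraries 19 and 23 gave 0.94 for the second. Against F/F PBS the ΔMye Tat difference was 1.81, a fold of 3.50, or 2.22 after scaling.

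Itgal is abundant in T cells and neutrophils, whose markers also differed between the groups. The 7 T cell markers summed to 5.60–11.4 TPM in F/F PBS, and with Tat the sum was 6.10–7.07 in F/F and 13.6–14.2 in ΔMye macrophages, with none at 0 throughout a group and Lck the highest in each group. Neutrophil markers summed to 54.7–67.8, 64.1–76.4 and 86.6–103 TPM, nearly all of it S100a8. The other neutrophil markers did not move together. Ly6g averaged 0.0338, 0.274 and 0.351 TPM, but Retnlg 5.07, 0.671 and 0.298 and S100a9 1.15, 0.842 and 0.716. Cxcr2 averaged 0.359, 0.260 and 0.367 TPM, and Mpo and Elane were at or near 0. The T cell and neutrophil sums were highest in ΔMye Tat, as Itgal was, while the T cell sum overlapped between F/F PBS and F/F Tat, where Itgal did not. The T cell markers did not move together between those groups. Cd3e averaged 1.46 TPM in F/F PBS and 0.724 in F/F Tat, and Cd3d, Cd3g, Cd4 and Cd8a were also lower with Tat. Lck (1.96 and 3.00 TPM) and Cd247 (0.862 and 1.05) were higher. The NK cell sums were 4.49–9.03, 5.13–8.33 and 6.45–9.17 and the B cell sums 12.4–25.7, 11.3–15.04 and 8.33–13.0. The dendritic cell sum was at most 2.11 TPM in any library and the eosinophil sum at most 2.41. Mast cell markers summed to 25.2–34.4, 22.9–31.2 and 16.1–23.3 TPM. Their part in the Itgal difference was not tested.

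Itgam, the α chain of Mac-1, went the other way from Itgal with Tat. Its libraries ran from 163 TPM through a median of 175 to 194 in F/F PBS and from 96.4 through 106 to 114 in F/F Tat, and the ΔMye Tat libraries averaged 116 ± 9.74 (SD, n = 5) within 100 to 127. The groups with and without Tat did not overlap, and the Tat-treated groups did. With Tat it fell by 0.75 on the log2 scale (SE 0.06, limma adjusted p = 2.21e-10), and after scaling by 0.11 (adjusted p = 0.0136). Between the Tat groups the difference was 0.13 (95% interval 0.00 to 0.25, limma adjusted p = 0.0727), and -0.09 after scaling. Without library 23 it was 0.18 (adjusted p = 0.00991), so this library decides that call.

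Itgax, the α chain of CR4 and a dendritic cell marker, fell with Tat and was higher in ΔMye Tat than in F/F Tat. F/F PBS libraries were at 26.5 to 33.8 TPM with a median of 31.7, F/F Tat libraries at 12.6 to 14.9 with a median of 13.3, and ΔMye Tat libraries at 27.2, 22.8, 22.5, 22.1 and 18.3. All ΔMye libraries were above all F/F Tat libraries, and library 19 reached into the F/F PBS range. It fell by 1.19 with Tat (SE 0.08, limma adjusted p = 2.50e-11), or by 0.56 after scaling, and was 0.71 higher in ΔMye Tat than in F/F Tat (SE 0.08, limma adjusted p = 6.47e-07), or 0.50 after scaling. Against F/F PBS the ΔMye Tat difference was -0.48 (limma adjusted p = 2.86e-05) but -0.07 after scaling (adjusted p = 0.400). All 5 dendritic cell markers averaged under 1 TPM in each group.

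Itgb2, the shared β2 chain, had the highest mean of the members in every group, though Itgb1 overlapped it in F/F Tat. It fell with Tat along with Itgam and Itgax. The F/F PBS libraries held 771 to 871 TPM with a median of 831 and the F/F Tat libraries 391 to 430 with a median of 423. In ΔMye Tat the values were 608, 534, 524, 544 and 460, all above F/F Tat and below F/F PBS. Itgb2 fell by 0.98 with Tat (SE 0.05, limma adjusted p = 2.97e-13), or by 0.34 after scaling. It was 0.35 higher in ΔMye Tat than in F/F Tat (SE 0.05, limma adjusted p = 1.24e-05), or 0.13 after scaling (adjusted p = 0.00981). Against F/F PBS the ΔMye Tat difference was -0.63, or -0.22 after scaling.

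The make-up of the α chains that pair with β2 differed between all 3 groups. Itgal was 15.1% ± 0.693 of the summed TPM of Itgal, Itgam, Itgax and Itgad in F/F PBS, and with Tat it was 36.9% ± 0.486 in F/F and 48.7% ± 1.59 in ΔMye macrophages (SD, n = 6, 6 and 5). Itgam was 72.1% ± 0.927, 55.9% ± 0.445 and 43.0% ± 1.68, and Itgax 12.7% ± 0.682, 7.22% ± 0.487 and 8.34% ± 0.274. Itgad never exceeded 0.236%. These shares are taken within a library, so no scaling between libraries enters them, and for Itgal, Itgam and Itgax they did not overlap between any groups. Itgal over Itgam was 0.210 ± 0.0117 in F/F PBS and 0.660 ± 0.0122 in F/F Tat, and at 1.14 ± 0.0795 in ΔMye Tat every library there had more Itgal than Itgam. The lowest of those ratios was 1.01, in library 23. The summed α chains over Itgb2 were 0.299 ± 0.0101, 0.452 ± 0.0202 and 0.505 ± 0.0178, also without overlap. A transcript ratio gives no count of the receptors at the surface. Shares and ratios with Itgam also hold the unknown split of reads with Gm49368.

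**Figure D3:**
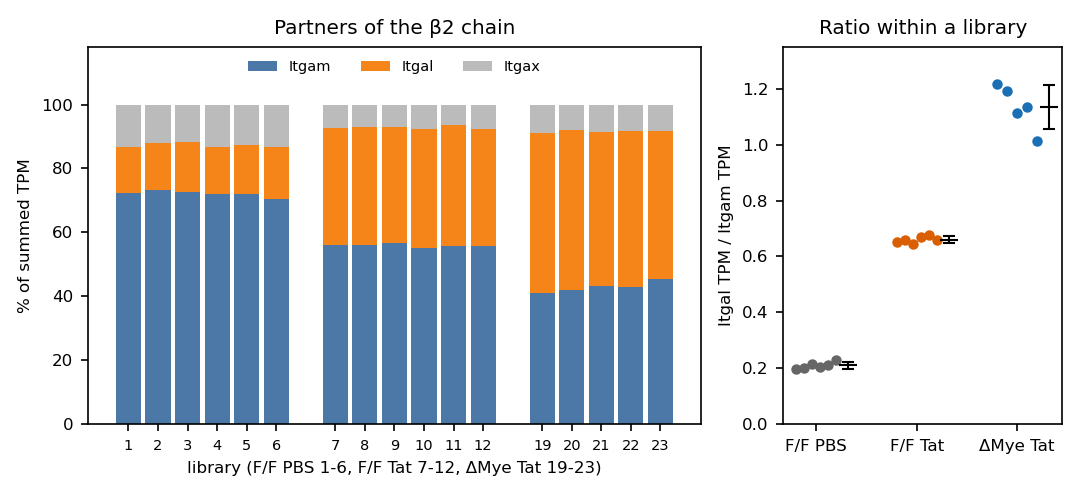
Left, percent of the summed TPM of Itgam, Itgal and Itgax held by each (y axis) in each of the 17 libraries; right, Itgal TPM over Itgam TPM by group, with points for libraries and bars for the mean and SD. The Itgal share is higher in every F/F Tat library than in any F/F PBS library, and every ΔMye Tat ratio is above 1.

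Itga4 and Itgb1, the chains of VLA-4, did not move together. Itga4 libraries ran from 20.99 TPM through a median of 23.1 to 29.7 in F/F PBS and from 13.1 through 15.9 to 17.9 in F/F Tat, and the ΔMye Tat libraries averaged 22.9 ± 3.38 (SD, n = 5) within 17.6 to 26.9. F/F PBS and F/F Tat did not overlap, and ΔMye Tat overlapped both. Itga4 fell by 0.63 with Tat (SE 0.10, limma adjusted p = 9.37e-06), whereas after scaling the difference was 0.00 (adjusted p = 0.970), and under quantile normalization -0.11 (adjusted p = 0.227). It was 0.54 higher in ΔMye Tat than in F/F Tat (SE 0.11, limma adjusted p = 2.61e-04), or 0.32 after scaling (adjusted p = 0.00485). Against F/F PBS the difference was -0.09 (95% interval -0.31 to 0.13, limma adjusted p = 0.430), and 0.32 after scaling (adjusted p = 0.00226).

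Itgb1, the β1 chain, was second to Itgb2 in mean level and had the smallest log2 rise with Tat of the 4 members that rose. It was at 305 to 355 TPM with a median of 314 in F/F PBS, at 372 to 403 with a median of 386 in F/F Tat and at 398 to 450 with a median of 437 in ΔMye Tat. The Tat groups overlapped, and neither overlapped F/F PBS. Itgb1 rose by 0.27 with Tat (SE 0.04, limma adjusted p = 1.54e-06), or by 0.91 after median-ratio scaling. Under quantile normalization it did not pass (0.02, adjusted p = 0.725). The difference between the Tat groups was 0.15 (SE 0.04, limma adjusted p = 0.00271), and after scaling it was -0.07 (adjusted p = 0.105), so its direction depends on the scaling. Without library 22 its adjusted p lay just over 0.01. Itga4 over Itgb1 was 0.0757 ± 0.00740 in F/F PBS, and with Tat it was 0.0404 ± 0.00303 in F/F and 0.0531 ± 0.00615 in ΔMye macrophages, where the Tat groups overlapped by a narrow margin and both lay below F/F PBS.

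Selplg, the gene of PSGL-1, fell with Tat in F/F macrophages in TPM as deposited, and its level in ΔMye Tat overlapped that of F/F Tat. It was at 97.0 to 112 TPM with a median of 103 in F/F PBS, at 61.9 to 66.7 with a median of 63.8 in F/F Tat and at 63.3 to 68.9 with a median of 63.6 in ΔMye Tat. Tat libraries of both genotypes overlapped and lay below F/F PBS. It fell by 0.70 with Tat (SE 0.04, limma adjusted p = 9.58e-13), and by 0.06 after scaling (adjusted p = 0.115). The difference between the Tat groups was 0.02 (95% interval -0.06 to 0.10, limma adjusted p = 0.655), and -0.20 after scaling (adjusted p = 1.69e-04). Without library 19 it was -0.00, so no direction is given for Selplg between the genotypes.

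Other genes of the pathway were read from 5 lists, by the same tests, and their counts are read against all tested genes. In TPM as deposited, 17% of all tested genes rose and 67.6% fell with Tat, and 38.8% were higher and 8.87% lower between the Tat groups. After scaling, 3893 of the 10451 tested genes rose and 3967 fell with Tat, and 1658 were higher and 2027 lower between the Tat groups. Of 21 other integrin chains, 8 passed the filter on low values, of which 4 rose and 4 fell with Tat, and 4 were higher, 1 lower and 3 not past the test in ΔMye Tat against F/F Tat. Itga5, which pairs with β1 in the fibronectin receptor, went from 64.4 ± 3.70 TPM in F/F PBS to 172 ± 3.71 with Tat and was at 255 ± 19.1 in ΔMye cells, and its log2 differences were 1.42 and 0.56 (limma adjusted p = 1.66e-16 and 6.87e-09), or 2.05 and 0.34 after scaling. Itgb8, a partner of αV, went from 0.104 to 6.61 and 4.50 TPM, with differences of 5.06 and -0.57 (limma adjusted p = 1.00e-16 and 0.00520), or 5.50 and -0.79 after scaling. The F/F PBS mean of Itgb8 is close to the 0.1 added before taking logs, so the size of its first difference depends on that value. Itgb5, another αV partner, fell from 67.1 to 9.28 TPM with Tat, a difference of -2.84 (limma adjusted p = 4.85e-19), or -2.21 after scaling. Itga6, a laminin receptor chain, fell from 11.4 to 2.03 TPM, a difference of -2.43 (limma adjusted p = 1.97e-14), or -1.81 after scaling. After scaling, the 8 chains gave 4 higher and 4 lower with Tat, and 2 higher, 2 lower and 4 not past the test between the Tat groups. Their median log2 differences were 0.07 with Tat and 0.22 between the Tat groups, against -0.65 and 0.22 for all tested genes.

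Of 20 other adhesion receptors and ligands, 19 were in the table and 12 passed the filter, of which 6 rose, 4 fell and 2 did not pass with Tat, and 2 were higher, 5 lower and 5 not past the test in ΔMye Tat. Their medians were 0.65 and -0.12. After scaling this list had 7 rises and 2 falls with Tat, where 3893 of 10451 tested genes rose and 3967 fell. Between the Tat groups the scaled list had 0 rises and 6 falls, where 1658 tested genes were higher and 2027 lower.

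The 26 integrin activators and adaptors, 22 of them tested, gave 5 rises, 13 falls and 4 not past the test with Tat, and 14 higher, 2 lower and 6 not past it in ΔMye Tat. The falls with Tat are a smaller share of the list than the 67.6% of all tested genes, and the list's medians were -0.44 and 0.30, against -0.65 and 0.22. Parvg, of the parvin family of integrin-linked adaptors, fell from 34.8 ± 1.28 to 8.15 ± 0.718 TPM and was at 16.9 ± 1.61 in ΔMye Tat, differences of -2.08 and 1.04 (limma adjusted p = 1.54e-16 and 2.55e-10), or -1.45 and 0.82 after scaling. Rasgrp2, an activator of Rap1, fell from 11.6 to 1.69 TPM, a difference of -2.94 (limma adjusted p = 7.09e-07), or -2.33 after scaling, and its difference between the Tat groups of 0.16 did not pass (limma adjusted p = 0.748). Scaled values gave 10 rises and 5 falls with Tat and 4 of each, with 14 not past the test, between the Tat groups.

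Enzymes that fit PSGL-1 for selectin binding fell with Tat in 8 of 9 tested cases, of 10 listed, and 1 rose, where 67.6% of all tested genes fell. Their median log2 difference was -0.73, close to the -0.65 of all tested genes. In ΔMye Tat against F/F Tat, 6 were higher, 1 lower and 2 not past the test. Gcnt1, which starts core 2 O-glycan branches, went from 10.97 to 0.878 TPM with Tat, a difference of -3.50 (limma adjusted p = 1.67e-14), or -2.90 after scaling. C1galt1, the core 1 O-glycan enzyme, went from 11.8 to 2.43, a difference of -2.23 (limma adjusted p = 1.63e-15), and was 0.64 higher in ΔMye Tat (limma adjusted p = 3.11e-06), or -1.61 and 0.43 after scaling. Tpst1, a tyrosine sulfotransferase, rose instead, from 15.1 to 56.7 TPM, a difference of 1.91 (limma adjusted p = 5.17e-19), and was lower in ΔMye Tat at 34.3 TPM, a difference of -0.72 (limma adjusted p = 8.07e-11). Its scaled differences were 2.54 and -0.94. After scaling the list gave 3 rises, 4 falls and 2 not past the test with Tat, and 1 higher, 2 lower and 6 not past the test between the Tat groups.

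The 3 sheddases cut adhesion molecules from the cell surface. All fell with Tat and all were higher in ΔMye Tat than in F/F Tat, on both scales. In TPM as deposited, 67.6% of all tested genes fell with Tat and 38.8% were higher between the Tat groups. After scaling, 3967 of 10451 tested genes fell with Tat and 1658 were higher between the Tat groups. Adam8 went from 131 to 25.5 TPM with Tat and stood at 37.9 in ΔMye Tat, differences of -2.35 and 0.57 (limma adjusted p = 1.38e-20 and 1.80e-09), or -1.72 and 0.35 after scaling. Adam10 went from 65.7 to 17.4 and 26.8 TPM, differences of -1.91 and 0.62 (limma adjusted p = 1.97e-16 and 1.29e-07), or -1.28 and 0.40 after scaling. The lists were chosen with results of these data known, and their counts are descriptions.

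**Figure D4:**
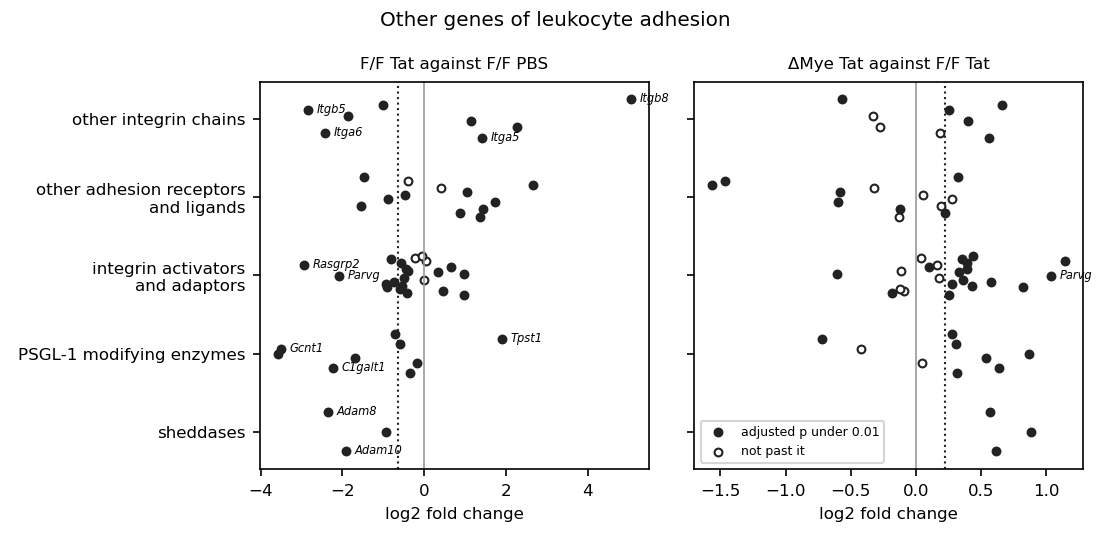
Log2 differences (x axes, each panel with its own scale) of tested genes in the 5 lists, filled where the limma adjusted p is under 0.01 and open otherwise, with the dotted line at the median tested gene and labels on genes named in the text. All 3 sheddases lie left of 0 with Tat and right of 0 between the Tat groups.

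The genes whose TPM ran most like each member over the 17 libraries were taken from 6679 candidates by Pearson's r of log2(TPM + 0.1), a description that the 3 group levels largely set. For Vcam1 they were Il12b, Iigp1 and Socs1 (r of 0.996, 0.996 and 0.995). For Icam1 they were Slc31a1, Gas7 and Cav1 (r of 0.986, 0.984 and 0.982), and Cav1 went from 31.8 to 44.5 and 113 TPM over F/F PBS, F/F Tat and ΔMye Tat. For Itgal they were Rasgef1b, Ccdc71l and Ptk2b (r of 0.990, 0.989 and 0.989), and for Itgb2 they were Ap3d1, Epb41l2 and Lasp1.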

How the data were processed

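RNA was measured by bulk RNA-Seq in 17 libraries, grouped by the sample labels. The authors ran Salmon against Ensembl mouse genes (GRCm38) and deposited TPM by gene symbol, with no normalization between libraries stated. Depth cannot be recovered from TPM, so precision rests on the spread between libraries, which the study calls replicates of mice.

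Genes at 1 TPM or more in at least 5 libraries (10451) were fitted as log2(TPM + 0.1) in limma 3.58.1 (R 4.3.3), all 3 groups in 1 fit, with Benjamini-Hochberg adjustment over all tested genes. The authors' threshold was used for calls, adjusted p under 0.01 and fold over 3. Fold changes are on the log2(TPM + 0.1) scale and understate low genes. The authors compared groups by edgeR on counts, and TPM values cannot enter a count test. The fit was tested on simulated data. Alternatives were median-ratio and quantile scaling, other pseudocounts and filters, a rank test and leaving out libraries, and leaving out libraries 19 and 23 together was chosen after seeing the data.

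Named genes were the 9 members, Ikbkb, and of the 5 lists (other integrin chains, other adhesion receptors and ligands, activators and adaptors, PSGL-1 enzymes, sheddases) those past the call threshold in any comparison with a group mean of at least 5 TPM, up to 6 a list. An allele that all mice share and 1 gene that met this rule are not reported here. Members and lists were chosen with earlier results of these data known. Promoter letters come from RefSeq (GRCm38.p6).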

Additional observations from a re-analysis of the deposited data

Results flagged for a closer look

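In 27 sets of libraries (9 members in 3 groups), 2 had 1 library apart from the rest by Dixon's criterion. Itgax in F/F PBS library 3 was the lowest at 26.5 TPM, with the nearest other library at 31.1, a gap of 0.630 of the group's range. Selplg in ΔMye Tat library 19 was the highest at 68.9 TPM, with the nearest other at 64.7, a gap of 0.749 of the range. The criterion flags some sets by chance alone at this number of sets.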

How the results depend on the processing

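Icam1, Vcam1 and Itgal were higher with Tat, and higher again in ΔMye Tat, in every alternative run, and Itgax and Itgb2 fell with Tat in each of them. After median-ratio scaling Itgam (-0.0929), Itgb1 (-0.0673) and Selplg (-0.20) were lower in ΔMye Tat than in F/F Tat, Itga4 was at 0.00348 with Tat and at 0.32 in ΔMye Tat against F/F PBS, and after quantile normalization Itga4 was at 0.21 there and Selplg at -0.0829 between the Tat groups. Leaving out 1 library turned Itga4 in ΔMye Tat against F/F PBS (from -0.151 without library 19 to 0.00220 without library 23) and Selplg between the Tat groups (from -0.00106 without library 19 to 0.0337 without library 8). The cause was not tested. With no fold threshold, members called were 4 higher and 5 lower with Tat, 7 higher between the Tat groups, and 4 higher and 4 lower in ΔMye Tat against F/F PBS. No tested gene passed the exact Wilcoxon test between the Tat groups, where the smallest adjusted p among members was 0.0119. In ΔMye Tat against F/F PBS, also 5 against 6 libraries, that test passed 4 members as higher and 3 as lower. Itgax did not pass it there (exact Wilcoxon adjusted p = 0.0120). Leaving out libraries 19 and 23 together changed no call. Over all genes, calls with Tat were 545 higher and 2031 lower, but 889 and 1017 after median-ratio scaling and 867 and 826 after quantile normalization. Between the Tat groups they were 46 and 33, 25 and 64, and 16 and 55, and in ΔMye Tat against F/F PBS 458 and 1165, 668 and 658, and 665 and 544. No paired analysis was possible because the library numbers are not shared between groups. TPM gives no depth, so counting error at low levels such as Vcam1 in F/F PBS could not be set apart from library spread.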
